A study of Mus musculus with 6 samples.

Results

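Small leucine-rich proteoglycans (SLRPs) are secreted matrix proteins, and 10 of their genes were followed here in mammary fibroblasts: *Dcn*, *Bgn*, *Lum*, *Fmod*, *Ogn*, *Omd*, *Prelp*, *Aspn*, *Kera* and *Podn*. They were chosen by name from the family with earlier results of these data known, and all 10 were found among the 27179 genes of the count table. Bulk RNA-seq was performed on fibroblasts from the mammary glands of pubertal female FVB/N mice (FVB/NJ in the study's methods) at 6 weeks of age, sorted as Lin–CD24–Pdgfrα+ cells and then divided by surface CD34. There were 3 mouse pools of 2 animals each, and both CD34hi and CD34lo fibroblasts were taken from every pool, giving 3 libraries per population and 6 in all. The labels name no treatment and no transgene, and the populations were set apart by their level of CD34. The comparison asks how the SLRP transcripts of the 2 populations differ.

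SLRPs carry a core of leucine-rich repeats that binds fibrillar collagen, and many bear glycosaminoglycan side chains of chondroitin, dermatan or keratan sulfate. They set the diameter and spacing of collagen fibrils in skin, tendon, cornea and loose connective tissue. Several also bind growth factors or cell surface receptors, and fibroblasts are a main source of them. The family is divided into classes by sequence. *Dcn*, *Bgn* and *Aspn* belong to class I, *Lum*, *Fmod*, *Prelp*, *Kera* and *Omd* to class II, *Ogn* to class III and *Podn* to class V.

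A group of the family's genes on chromosome 13 lies in a row on the plus strand, and 3 of them are members that were higher in the same population. The 250 bases before the RefSeq start of each (GRCm38.p6) are printed here because these neighbours share a locus while *Ecm2*, encoding a further class I-related protein, moved the other way. Capitals mark every match, on either strand, to the core letters of the TATA box (TATAAA), the CCAAT box, the GC box (GGGCGG), the AP-1 site (TGACTCA), the TEAD site (GGAATG) or an E-box (CAGCTG). The windows are chr13:49504560-49504809 for *Ecm2*, chr13:49544193-49544442 for *Aspn*, chr13:49582212-49582461 for *Omd* and chr13:49607765-49608014 for *Ogn*, and none overlapped an exon of another annotated transcript. For *Omd* and *Ogn* the RefSeq start lies a short way before the gene start in the count table.
Ecm2: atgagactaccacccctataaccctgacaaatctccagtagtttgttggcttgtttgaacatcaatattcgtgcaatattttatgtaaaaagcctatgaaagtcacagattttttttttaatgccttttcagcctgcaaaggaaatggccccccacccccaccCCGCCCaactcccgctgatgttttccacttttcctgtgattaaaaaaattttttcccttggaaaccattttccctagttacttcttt
Aspn: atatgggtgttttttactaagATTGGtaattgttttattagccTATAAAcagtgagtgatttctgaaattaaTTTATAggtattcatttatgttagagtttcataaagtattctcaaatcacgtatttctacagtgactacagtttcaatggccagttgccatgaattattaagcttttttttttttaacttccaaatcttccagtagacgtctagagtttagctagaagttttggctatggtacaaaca
Omd: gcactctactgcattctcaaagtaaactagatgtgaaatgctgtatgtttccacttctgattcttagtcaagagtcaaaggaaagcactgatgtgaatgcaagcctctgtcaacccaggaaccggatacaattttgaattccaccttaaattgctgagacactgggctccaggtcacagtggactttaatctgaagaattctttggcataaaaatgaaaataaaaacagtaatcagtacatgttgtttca
Ogn: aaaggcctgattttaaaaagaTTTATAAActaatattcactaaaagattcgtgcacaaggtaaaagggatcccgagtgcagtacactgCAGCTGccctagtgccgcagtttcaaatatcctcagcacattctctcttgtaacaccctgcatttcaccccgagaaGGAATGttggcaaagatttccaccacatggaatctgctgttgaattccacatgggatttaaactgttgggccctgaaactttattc

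These windows were poor in G and C. They held 40% G and C bases for *Ecm2*, 30% for *Aspn*, 38.4% for *Omd* and 42% for *Ogn*, against a median of 52.4% over the 32851 promoter windows of the same length. TATAAA was found as written and in reverse in the window of *Aspn*, and likewise in that of *Ogn*, where the matches overlap in 1 stretch, and 12.4% of all windows held it. These matches began 207 and 178 bases before the RefSeq start of *Aspn*, and 227 and 229 bases before that of *Ogn*. Whether they act as a TATA box was not tested. The *Aspn* window also held a reversed CCAAT (33.8% of windows), the *Ogn* window GGAATG (12.6%) and CAGCTG (13%), and the *Ecm2* window a reversed GGGCGG (32.7%). No match was found in the *Omd* window, and TGACTCA, present in 4.46% of windows, was in none of the 4. Of the 10 members, 8 had an entry in the promoter table, and *Dcn* and *Lum* had none. Outside the chromosome 13 group, G and C made up 42.4% for *Kera*, 51.2% for *Fmod*, 55.6% for *Prelp* and 64.4% for *Bgn*. The windows of *Podn* held 78% and 64%.

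Of the 10 members, 4 were higher in CD34hi fibroblasts (*Ogn*, *Aspn*, *Omd* and *Prelp*), 5 were higher in CD34lo fibroblasts (*Fmod*, *Kera*, *Bgn*, *Podn* and *Lum*), and *Dcn* did not pass the test. Log2 fold changes compare CD34hi with CD34lo, and genes were called at 0.05 on the p-value of edgeR's quasi-likelihood test, adjusted over 15219 genes by Benjamini and Hochberg. All 10 members passed the filter on low counts. Among all genes tested, 35.6% passed in either direction, 16.9% were higher in CD34hi and 18.7% were higher in CD34lo fibroblasts. The CPM values (counts scaled to a common library total after TMM) of the populations did not overlap for 9 of the 10 members, and this held for 50.1% of all tested genes. The median log2 fold change was -0.81 over the members and -0.00644 over all tested genes. The pools pointed the same way for each of the 10 members. Groups that do not overlap differ in the same direction in every pool, so this adds only *Dcn* to the 9 above. The share of all tested genes with 1 direction over the pools was not computed, but is at least the 50.1% without overlap. In bulk samples, fewer cells that express a gene and less RNA per cell cannot be told apart.

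The libraries held between 28764779 and 52402410 counts on genes, and 3 counts, taken as the least a library could show, correspond to 0.0572 to 0.104 CPM. This floor covers counting error only. The coefficient of variation common to all genes was 19.7%, and replicate libraries differed by more than the sampling noise. *Cd34*, the gene of the sorting marker, lay at 476, 793 and 632 CPM in CD34lo and at 2490, 2639 and 2584 CPM in CD34hi fibroblasts. An exact test of 3 libraries against 3 cannot go below p = 0.1, and the p-values of single genes therefore come from the model across all genes.

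**Figure D1:**
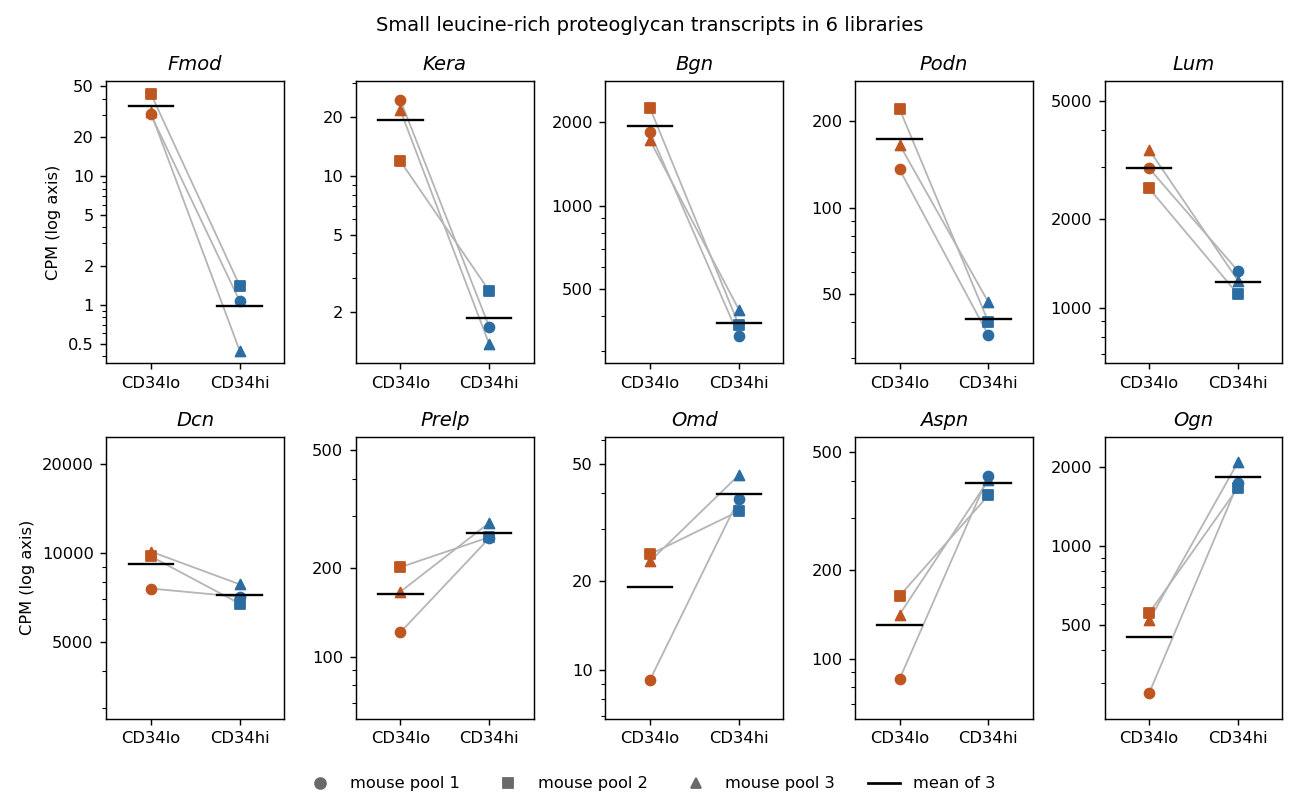
Levels of the 10 genes in CPM on log axes whose range differs between panels, with CD34lo libraries in orange, CD34hi libraries in blue, a marker shape and a grey line for each mouse pool, and a black bar for the mean of 3 libraries. The libraries of the 2 populations stand apart in 9 panels, and those of *Dcn* overlap between 7582 and 7836 CPM.

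Fibromodulin (*Fmod*, gene 14264, chr1:134037515-134048277), a class II proteoglycan that binds collagen I, showed the largest difference of the 10. It lay at 30.2, 43.9 and 31.3 CPM in CD34lo and at 1.07, 1.41 and 0.441 CPM in CD34hi fibroblasts. Every CD34hi library was therefore far under every CD34lo library, although above the floor. These levels rest on 1636, 1220 and 974 counts in CD34lo and on 48, 51 and 20 counts in CD34hi libraries. The log2 fold change was -5.19 ± 0.36 (SE, n = 3 per population, edgeR adjusted p = 1.57e-05), a 36.5-fold difference, and 0.88% of all tested genes had a larger one in size. An antisense gene that overlaps *Fmod* held 16 counts in all, and the library kit does not mark strand.

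Keratocan (*Kera*, gene 16545, chr10:97607205-97613688), best known from the corneal stroma, followed with 24.5, 11.9 and 21.7 CPM in CD34lo and 1.68, 2.57 and 1.37 CPM in CD34hi fibroblasts. Replicate 2 was the lowest CD34lo library and also the highest CD34hi library, and its pool gave the smallest difference within a pool, -2.19 on the log2 scale against -3.83 and -3.94. The log2 fold change was -3.38 ± 0.33 (SE, edgeR adjusted p = 9.23e-05), or 10.4-fold. *Fmod* and *Kera* were also among the least abundant members of CD34lo fibroblasts by level per length.

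Biglycan (*Bgn*, gene 12111, chrX:73483635-73495936), a class I proteoglycan with chondroitin or dermatan sulfate chains, was expressed at a far higher level. Its CPM values were 1850, 2259 and 1724 in CD34lo and 338, 371 and 422 in CD34hi fibroblasts, with no overlap. The log2 fold change was -2.37 ± 0.17 (SE, edgeR adjusted p = 1.77e-05), a 5.16-fold difference. Antisense genes in the same span took 0 counts.

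Podocan (*Podn*, gene 242608, chr4:108014793-108032090), a collagen-binding class V member, lay at 136, 221 and 166 CPM in CD34lo and at 36, 40 and 46.9 CPM in CD34hi fibroblasts. It was 4.25-fold higher in CD34lo fibroblasts (log2 fold change -2.09 ± 0.19, SE, edgeR adjusted p = 6.86e-05). Lumican (*Lum*, gene 17022, chr10:97565501-97572703), a class II proteoglycan needed for ordered fibrils in cornea and skin, measured 2967, 2538 and 3430 CPM in CD34lo and 1334, 1112 and 1237 CPM in CD34hi fibroblasts. This was the smallest called difference on the CD34lo side, 2.43-fold, with a log2 fold change of -1.28 ± 0.17 (SE, edgeR adjusted p = 0.000454). For both genes the lowest CD34lo library exceeded the highest CD34hi library.

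Decorin (*Dcn*, gene 13179, chr10:97479500-97518162), the class I proteoglycan that coats collagen fibrils with a single side chain, was by far the most abundant member and the only one that did not pass. It lay at 7582, 9746 and 10116 CPM in CD34lo and at 7106, 6739 and 7836 CPM in CD34hi fibroblasts. The lowest CD34lo library fell within the CD34hi range, and each pool had the lower value in its CD34hi library, with log2 differences of -0.09, -0.53 and -0.37. The log2 fold change was -0.34 ± 0.18 (SE, edgeR adjusted p = 0.176), with a 95% confidence interval from -0.75 to 0.07. *Dcn* took place 3 to 6 among all genes by TPM (a level per gene length, scaled to a common total) in the libraries of both populations.

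Osteoglycin (*Ogn*, gene 18295, chr13:49608071-49624500), also called mimecan, showed the largest difference on the CD34hi side. Its CPM values were 275, 555 and 521 in CD34lo and 1731, 1667 and 2087 in CD34hi fibroblasts. The groups stood well apart, and CD34lo replicate 1 was the lowest of all. The log2 fold change was 2.02 ± 0.26 (SE, edgeR adjusted p = 0.00045), a 4.06-fold difference. *Ogn* is a class III member whose product takes part in collagen fibrillogenesis.

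Asporin (*Aspn*, gene 66695, chr13:49544443-49567565), a class I member that carries no glycosaminoglycan chain and binds TGFβ1 and collagen, measured 85.2, 163 and 141 CPM in CD34lo and 415, 357 and 402 CPM in CD34hi fibroblasts. It was 3.03-fold higher in CD34hi fibroblasts (log2 fold change 1.60 ± 0.22, SE, edgeR adjusted p = 0.000699). Again CD34lo replicate 1 was the lowest library and the groups did not overlap.

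Osteomodulin (*Omd*, gene 27047, chr13:49582747-49592609), an acidic class II member known from mineralized matrix, was expressed at a low level, with 9.28, 24.7 and 23.4 CPM in CD34lo and 38.1, 34.6 and 45.8 CPM in CD34hi fibroblasts. The log2 fold change was 1.05 ± 0.32 (SE, edgeR adjusted p = 0.0324). This call was lost without pool 3 (adjusted p = 0.106), without CD34hi replicate 1 (0.0541) and without CD34hi replicate 3 (0.0799), with edgeR and the same adjustment throughout. Within pools the difference was 2.03, 0.49 and 0.96 on the log2 scale, so that pool 1 gave the largest and pool 2 the smallest.

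Prolargin (*Prelp*, gene 116847, chr1:133910304-133921401), a class II member with a basic amino-terminal region that binds heparin and heparan sulfate, lay at 121, 201 and 166 CPM in CD34lo and at 252, 254 and 284 CPM in CD34hi fibroblasts. It showed the smallest called difference of the 10, 1.62-fold, with a log2 fold change of 0.69 ± 0.18 (SE, edgeR adjusted p = 0.0172). The call was lost without pool 1 (adjusted p = 0.0623) and without pool 3 (0.0963) with edgeR. The CD34hi libraries were close together, whereas the CD34lo libraries spread from 121 to 201 CPM.

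The members varied more among CD34lo than among CD34hi libraries, but how many of all tested genes did so was not computed. The coefficient of variation over 3 libraries was larger in CD34lo fibroblasts for 9 of the 10, and *Fmod* was the exception with 21.6% in CD34lo and 50.4% in CD34hi libraries. The CD34lo values reached from 14.4% for *Bgn* to 44.7% for *Omd*, and the value was 33.9% in CD34lo and 12.4% in CD34hi for *Ogn*, 30.9% and 7.83% for *Aspn*, and 24.7% and 6.85% for *Prelp*. Collagen genes went both ways, with 8.32% in CD34lo and 18.1% in CD34hi libraries for *Col1a1* and 11.1% and 8.21% for *Col6a2*. CD34lo replicate 1 was the lowest CD34lo library for 7 members, among them all 4 that were higher in CD34hi fibroblasts. How many of all tested genes were lowest there was not computed. This library was also the lowest of the 3 for *Cd34* and the deepest library. For those 4 genes the difference within a pool was largest in pool 1 and smallest in pool 2, and the part of *Cd34* level or depth in this order was not tested.

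Per length, the order of the members differed between the populations. In CD34lo fibroblasts *Dcn* led with 11357 ± 1755 TPM (SD, n = 3), followed by *Lum* with 3727 ± 686, *Bgn* with 2099 ± 223 and *Ogn* with 458 ± 152 TPM, and the ranges of these neighbours did not overlap. *Aspn* (142 ± 41.7), *Podn* (142 ± 30.8) and *Prelp* (117 ± 26.3 TPM) came next, with overlapping ranges. *Fmod* (31.6 ± 5.71), *Omd* (28.2 ± 12.5) and *Kera* (25.9 ± 9.39 TPM) were lowest, again without a separation between neighbours.

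In CD34hi fibroblasts *Dcn* again led, with 8609 ± 919 TPM (SD, n = 3), but *Ogn* was next with 1789 ± 280 TPM and stood above *Lum* with 1465 ± 125 TPM. *Aspn* (412 ± 34) and *Bgn* (392 ± 58 TPM) overlapped in range. *Prelp* (182 ± 18.6), *Omd* (56 ± 9.82), *Podn* (32.2 ± 5.45), *Kera* (2.37 ± 0.77) and *Fmod* (0.837 ± 0.413 TPM) followed, each separate from the next. *Bgn* thus stood at place 48 to 63 among all genes by TPM in CD34lo libraries and at place 345 to 448 in CD34hi libraries, while *Ogn* stood at place 254 to 524 in CD34lo and at place 69 to 89 in CD34hi libraries.

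The 10 members together took 1.35%, 1.52% and 1.71% of all counts in CD34lo and 1.1%, 1.04% and 1.22% in CD34hi libraries. Of the summed TPM of the 10 genes, *Dcn* made up 59.7% to 64.1% in CD34lo and 66.1% to 66.8% in CD34hi libraries, the largest part in both. *Lum* made up 16.8% to 23.5% in CD34lo and 10.6% to 12.5% in CD34hi, and *Bgn* 9.46% to 13% in CD34lo and 2.74% to 3.21% in CD34hi libraries. *Ogn* made up 1.78% to 3% in CD34lo and 13.2% to 14.6% in CD34hi libraries. These shares sum to a whole in each library and so do not move independently, and they are given without a test.

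**Figure D2:**
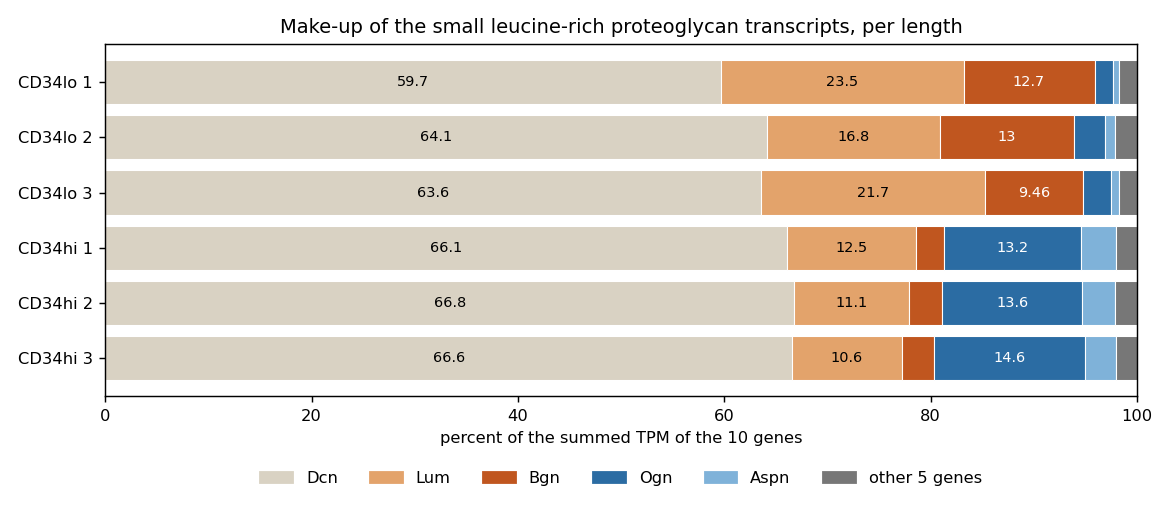
Make-up of the SLRP transcripts in each library as the percent of the summed TPM of the 10 genes (horizontal axis), with shares above 4% written in the bars. *Dcn* fills 59.7% to 66.8% of every bar, and the *Ogn* segment is 13.2% or more in CD34hi libraries and 3% or less in CD34lo libraries.

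Ratios between members within a library do not depend on the library total. The ratio of *Dcn* to *Bgn* TPM was 4.7, 4.95 and 6.73 in CD34lo and 24.1, 20.8 and 21.3 in CD34hi libraries. The ratio of *Lum* to *Ogn* was 13.2, 5.6 and 8.06 in CD34lo libraries, whereas in CD34hi libraries it was 0.943, 0.816 and 0.725, so that *Ogn* exceeded *Lum* in each of them. The ratio of *Bgn* to *Ogn* went from between 3.52 and 7.15 in CD34lo to between 0.207 and 0.237 in CD34hi libraries. The populations did not overlap in any of these ratios. For *Lum* to *Ogn* and *Bgn* to *Ogn* this follows from the single genes, which did not overlap and moved in opposite directions. It therefore adds no further result.

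Of the 10 members, 8 lie in genomic clusters of the family on chromosomes 13, 10 and 1, while *Bgn* on chromosome X and *Podn* on chromosome 4 stand apart (coordinates on GRCm38). On chromosome 13, *Ecm2*, *Aspn*, *Omd* and *Ogn* follow each other on the plus strand within 120 kb, with 11.7 to 15.5 kb between neighbours. *Aspn*, *Omd* and *Ogn* were higher in CD34hi fibroblasts, while *Ecm2*, chr13:49504810-49532789, was higher in CD34lo fibroblasts (143, 241 and 217 against 106, 90.3 and 116 CPM, log2 fold change -0.94 ± 0.20, SE, edgeR adjusted p = 0.00598). Of the 5 other tested genes within 250 kb, 1 was higher in CD34hi, 0 were higher in CD34lo and 4 did not pass. *Bicd2* was the called neighbour, with a log2 fold change of 0.57. *Cenpp*, which spans the 4 genes on the opposite strand, held 156 counts in all libraries together and had a log2 fold change of -0.22 (edgeR adjusted p = 0.766).

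On chromosome 10, *Dcn*, *Lum*, *Kera* and *Epyc* lie on the plus strand within 202 kb and had log2 fold changes of -0.34, -1.28, -3.38 and -3.06. *Epyc*, the gene of epiphycan, a class III proteoglycan of growth plate cartilage, was measured at 3.2 to 6.72 CPM in CD34lo and at 0.529 to 0.581 CPM in CD34hi fibroblasts. All were thus lower in CD34hi libraries on average, with *Dcn* the one that did not pass. On chromosome 1, *Prelp* lies 116 kb from *Fmod*, and they moved in opposite directions, by 0.69 and -5.19. *Optc*, which encodes opticin of the vitreous and lies 2.3 kb from *Prelp*, was higher in CD34hi fibroblasts but reached at most 0.961 CPM, and its call was lost without pool 1 (edgeR adjusted p = 0.0707). Of the 8 other tested genes around this locus, 1 was called, *Btg2*, with a log2 fold change of -1.64.

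**Figure D3:**
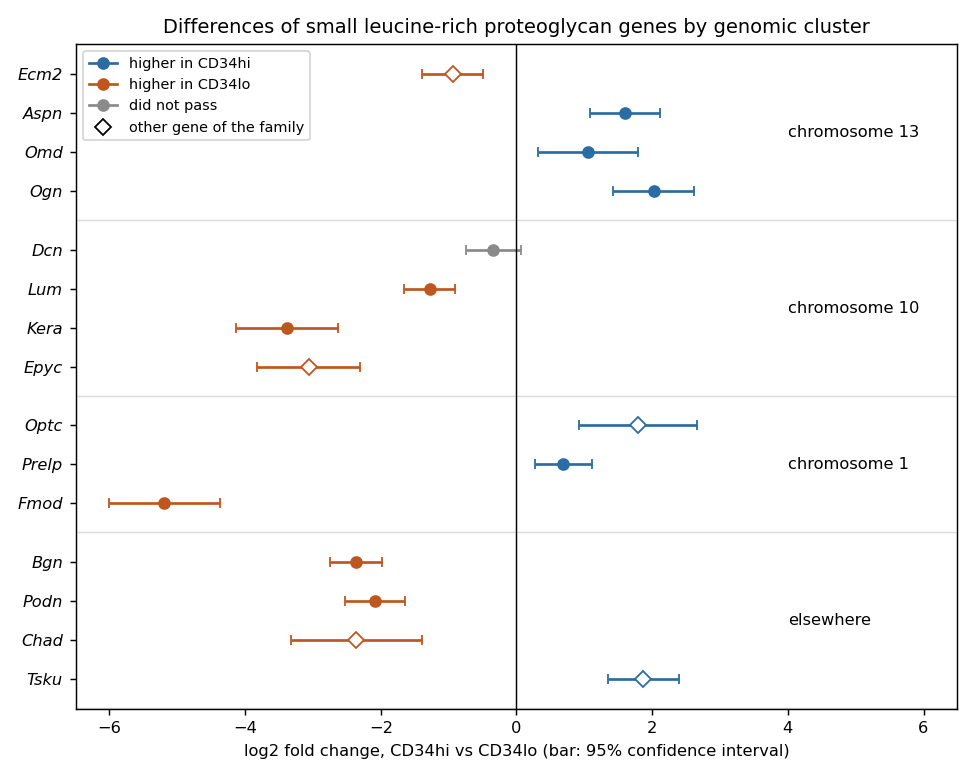
Log2 fold change of CD34hi vs CD34lo (horizontal axis, bars are 95% confidence intervals) for the 15 tested SLRP genes, grouped by chromosome, with filled circles for the 10 members, open diamonds for other genes of the family and colour for the edgeR call. *Aspn*, *Omd* and *Ogn* lie to the right of 0 and *Ecm2* to the left, whereas the genes on chromosome 10 lie to the left, with the interval of *Dcn* reaching 0.07.

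Of the 7 further genes of the family, 5 passed the filter, of which 2 were higher in CD34hi and 3 were higher in CD34lo fibroblasts. *Tsku*, which encodes tsukushi, a class IV member that modulates BMP and Wnt signalling, lay at 15.5, 12.7 and 11.9 CPM in CD34lo and at 58.3, 56.7 and 32.3 CPM in CD34hi fibroblasts (log2 fold change 1.87 ± 0.23, SE, edgeR adjusted p = 0.000341). *Chad*, the gene of chondroadherin, a cartilage protein that binds integrins, was at 1.15 to 2.06 CPM in CD34lo and at 0.179 to 0.359 CPM in CD34hi fibroblasts. *Nyx* and *Podnl1* were filtered out and did not exceed 0.432 CPM in any library. Over the 15 tested SLRP genes, 6 were higher in CD34hi, 8 were higher in CD34lo and 1 did not pass.

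The side chains of decorin and biglycan start from a linker tetrasaccharide on a serine of the core protein. The counts of this and the following lists stand beside 35.6% of all tested genes called, 16.9% higher in CD34hi and 18.7% higher in CD34lo. Of 7 genes listed for the linker, 0 were higher in CD34hi, 2 were higher in CD34lo and 5 did not pass. The called genes were the xylosyltransferases that add the first sugar, *Xylt1* (15.8, 14.3 and 11.4 against 6.24, 5.46 and 8.51 CPM in CD34hi, log2 fold change -1.04 ± 0.20, SE, edgeR adjusted p = 0.00425) and *Xylt2* (log2 fold change -0.51, edgeR adjusted p = 0.03). Without pool 1 neither passed (edgeR adjusted p = 0.0572 and 0.211), and *Xylt2* was also lost without pool 2 and without 4 of the 6 single libraries. *Fam20b*, the xylose kinase, and *B3gat3*, which adds the glucuronic acid, had log2 fold changes of 0.30 and 0.20 and did not pass.

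Of 16 genes listed for chondroitin and dermatan sulfate, 15 were tested, of which 3 were higher in CD34hi, 6 were higher in CD34lo and 6 did not pass. With a replicate block for mouse pool, 5 were higher in CD34hi and 6 in CD34lo fibroblasts. The chain polymerases *Chsy1* (151, 89.1 and 137 against 46, 44 and 36.3 CPM in CD34hi) and *Chsy3* (14.9, 8.85 and 13.5 against 3.2, 3.42 and 2.71 CPM) were higher in CD34lo fibroblasts, with log2 fold changes of -1.58 and -2.00. The 6-O-sulfotransferases moved in opposite directions. *Chst3* was at 1.47 to 2.53 CPM in CD34lo and at 0.176 to 0.248 CPM in CD34hi fibroblasts, with a log2 fold change of -3.17, whereas *Chst7* was at 0.432 to 1.9 CPM in CD34lo and at 8.72 to 9.77 CPM in CD34hi fibroblasts, with a log2 fold change of 3.35. CD34lo replicate 3 held the 1.9 CPM of *Chst7*, and the log2 fold change was 4.36 without this library and 4.31 without pool 3. The epimerases that turn chondroitin into dermatan sulfate, *Dse* (log2 fold change -0.03) and *Dsel* (0.51), did not pass, but *Dsel* passed with the replicate block (edgeR adjusted p = 0.0249) and without pool 3 (0.00703). The median log2 fold change of the list was -0.03.

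Keratan sulfate or its unsulfated form is carried by several class II members. Of 6 genes listed for it, 4 were tested, of which 2 were higher in CD34hi, 1 was higher in CD34lo and 1 did not pass. *Chst1*, which sulfates galactose, lay at 5.18, 3.88 and 9.19 CPM in CD34lo and at 27.7, 29.3 and 31 CPM in CD34hi fibroblasts (log2 fold change 2.27 ± 0.28, SE, edgeR adjusted p = 0.000328). *Chst2*, which sulfates N-acetylglucosamine, lay at 47, 17.7 and 46.5 CPM in CD34lo and at 9.84, 6.26 and 6.46 CPM in CD34hi fibroblasts (log2 fold change -2.30 ± 0.36, SE, edgeR adjusted p = 0.00135). *B4galt4* was higher in CD34hi fibroblasts by 0.44 on the log2 scale, and the more abundant galactosyltransferase *B4galt1* had a log2 fold change of 0.03. Among 7 genes of sulfate supply and tyrosine sulfation, 1 was higher in CD34hi (*Tpst2*, 0.45) and 1 in CD34lo (*Tpst1*, -0.39), and 2 were higher in CD34lo with the replicate block. The calls of *B4galt4*, *Tpst1* and *Tpst2* were lost without pool 2 (edgeR adjusted p = 0.0901, 0.179 and 0.216) and in at least 5 of the other 8 omissions of a pool or library.

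Some SLRPs are made with a propeptide that BMP1-type proteinases remove, and matrix proteinases cleave the mature proteins. Of 11 genes listed for processing, 4 were higher in CD34hi, 4 were higher in CD34lo and 3 did not pass. *Bmp1* lay at 471, 514 and 428 CPM in CD34lo and at 985, 1000 and 886 CPM in CD34hi fibroblasts, and *Pcolce2*, which encodes an enhancer of procollagen cleavage, at 139, 263 and 169 against 818, 829 and 861 CPM. Their log2 fold changes were 1.02 ± 0.13 and 2.14 ± 0.23 (SE, edgeR adjusted p = 0.000474 and 0.000153). *Pcolce*, which encodes a related enhancer, was higher in CD34lo fibroblasts (556, 793 and 538 against 369, 398 and 436 CPM, log2 fold change -0.65 ± 0.18, SE, edgeR adjusted p = 0.0193). The aggrecanases, which also cleave SLRPs, differed in direction. *Adamts4* was higher in CD34lo fibroblasts (230, 202 and 179 against 35.3, 32.5 and 37.6 CPM, log2 fold change -2.53), and *Adamts5* was higher in CD34hi fibroblasts (161, 278 and 276 against 670, 811 and 1377 CPM, log2 fold change 2.00). *Mmp13* held 19, 9 and 31 counts in CD34lo and 0, 0 and 1 counts in CD34hi libraries, and the abundant *Mmp2* and *Mmp14* had log2 fold changes of 0.21 and -0.04 and did not pass.

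**Figure D4:**
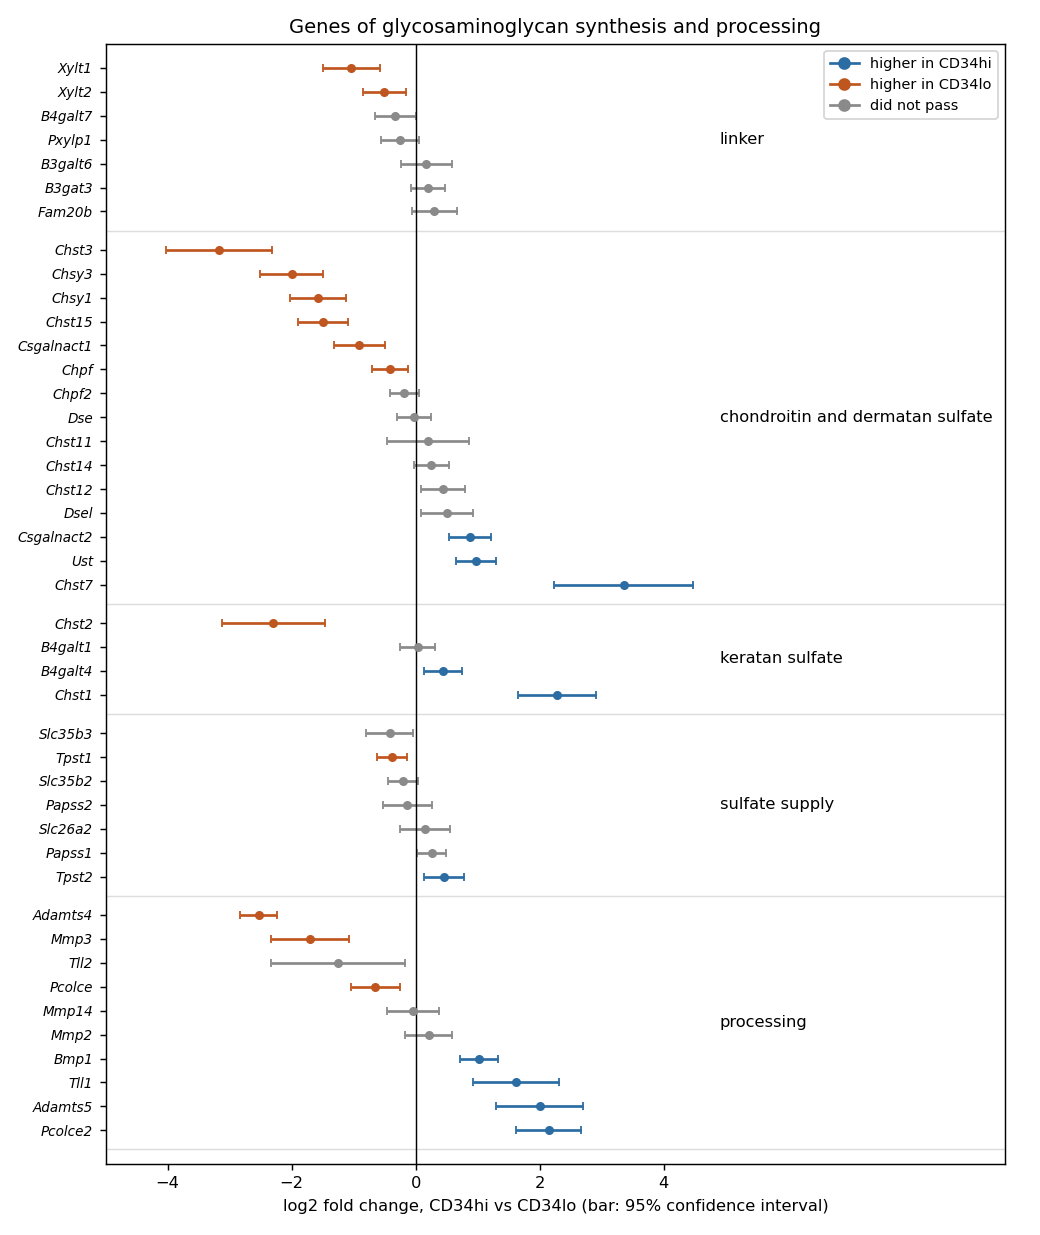
Log2 fold change of CD34hi vs CD34lo (horizontal axis, bars are 95% confidence intervals) for the tested genes of linker, chain, sulfate and processing lists, ordered by size within each list, with colour for the edgeR call and without *Mmp13*, which held 1 count in CD34hi libraries. Members of the chondroitin and dermatan sulfate list reach from -3.17 for *Chst3* to 3.35 for *Chst7*, which was 4.36 without CD34lo replicate 3.

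Of 11 genes of collagens that SLRPs bind or that share the fibril, 1 was higher in CD34hi, 7 were higher in CD34lo and 3 did not pass, and the median log2 fold change was -0.69. The collagen VI chains, which biglycan and decorin bind, included *Col6a1* with 4007, 3611 and 3659 CPM in CD34lo and 1519, 1383 and 1452 CPM in CD34hi fibroblasts (log2 fold change -1.37) and *Col6a2* with a log2 fold change of -1.58. *Col14a1*, which encodes a fibril-associated collagen that binds decorin, moved the other way, with 734, 863 and 779 CPM in CD34lo and 3522, 3052 and 2938 CPM in CD34hi fibroblasts (log2 fold change 2.00 ± 0.15, SE, edgeR adjusted p = 2.62e-05). *Col2a1*, the collagen of cartilage, was low (2.96 to 4.85 against 0.287 to 0.738 CPM, log2 fold change -2.97). The collagen I genes were higher in CD34lo fibroblasts, with mean CPM of 17429 against 9525 in CD34hi for *Col1a1* and 19902 against 12361 for *Col1a2*. Their log2 fold changes were -0.87 and -0.69 (edgeR adjusted p = 0.00808 and 0.0201). *Col3a1* and *Col5a1* had log2 fold changes of -0.44 and -0.04 and did not pass.

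Of 12 genes of receptors and growth factors that SLRPs bind, 5 were higher in CD34hi, 3 were higher in CD34lo and 4 did not pass. *Kdr* (VEGFR2) and *Met*, both receptors that decorin binds, were higher in CD34hi fibroblasts, the first with 4.57, 8.16 and 5.43 against 54.6, 70.9 and 33.9 CPM (log2 fold change 3.14) and the second with a log2 fold change of 2.11. *Tgfb2*, a ligand of the TGFβ family, was at 10.6, 15.5 and 11.4 CPM in CD34lo and at 126, 136 and 102 CPM in CD34hi fibroblasts (log2 fold change 3.29 ± 0.19, SE, edgeR adjusted p = 6.71e-06). *Tgfb1* and *Tgfb3*, also ligands of this family, were higher in CD34lo fibroblasts, with log2 fold changes of -1.11 and -0.64 (edgeR adjusted p = 0.00187 and 0.00494). *Ccn4* (WISP1), a matricellular protein that decorin and biglycan bind, was at 88.1, 33 and 60.2 CPM in CD34lo and at 3.73, 1.49 and 1.76 CPM in CD34hi fibroblasts (log2 fold change -4.69 ± 0.46, SE, edgeR adjusted p = 8.93e-05). *Lrp1* and *Egfr*, the most abundant receptors among those that did not pass, had log2 fold changes of -0.29 and -0.30.

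Both populations carried all 5 fibroblast markers, of which 1 was higher in CD34hi, 3 were higher in CD34lo and 1 did not pass (*Dcn* and *Lum* are themselves on this list). *Pdgfra* lay at 1036, 1315 and 1416 CPM in CD34lo and at 637, 703 and 922 CPM in CD34hi fibroblasts. *Igfbp5* moved the other way, with 638, 1054 and 608 CPM in CD34lo and 9354, 8374 and 7483 CPM in CD34hi fibroblasts (log2 fold change 3.45 ± 0.26, SE, edgeR adjusted p = 2.27e-05). Because several members are known from tendon, cartilage and bone, markers of those tissues were examined, together with those of other cells the gate could hold. Of 3 tendon markers, 2 were tested and 1 was called: *Tnmd* lay at 6.34 to 11.9 CPM in CD34lo and at 0.221 to 0.693 CPM in CD34hi fibroblasts, whereas *Scx* and *Mkx* did not exceed 0.609 CPM in any library. Summed, the tendon list reached 7.41 to 12.2 CPM in CD34lo and 0.911 to 1.03 CPM in CD34hi fibroblasts. Of 6 cartilage and bone markers, 2 were tested and 1 was called (*Col2a1*), and *Sp7* and *Ibsp* were at 0 CPM in all libraries. The sums were 19.5 to 19.8 CPM in CD34lo and 11.5 to 14.3 CPM in CD34hi fibroblasts. Most of both sums came from *Sox9*, at 14.6 to 16.6 and 11.2 to 13.9 CPM, which did not pass (edgeR adjusted p = 0.0851). *Tnmd* and *Col2a1* moved with *Fmod*, *Kera*, *Bgn*, *Podn* and *Lum*, and their part in those differences was not tested.

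Among the other cells, the pericyte list summed to 7.36 to 11.5 CPM in CD34lo and 1.59 to 2.46 CPM in CD34hi fibroblasts, with 2 of 2 genes called. The macrophage list reached 27.3 to 48.6 CPM in CD34lo and 2.57 to 3.2 CPM in CD34hi fibroblasts, with *Fcgr2b* alone at 23.6 to 43.4 CPM in CD34lo, while *C1qa* and *Cd163* did not exceed 1.61 CPM. The keratinocyte list was higher in CD34hi fibroblasts, at 14.3 to 19.9 CPM against 3.6 to 7.12 CPM, with 2 of 2 genes called, and moved with *Ogn*, *Aspn*, *Omd* and *Prelp*. Of 6 epithelial markers, 0 were higher in CD34hi and 2 were higher in CD34lo fibroblasts, with *Acta2* at 28.1 to 38.2 CPM in CD34lo and 3.23 to 3.24 CPM in CD34hi, and *Epcam* at 3.97 to 7.65 CPM in all. Of 3 endothelial markers, *Cd34* was the sorting marker, and *Pecam1* (CD31) lay at 12.1 to 18.4 CPM in CD34lo and at 3.22 to 10.3 CPM in CD34hi fibroblasts. The muscle and adipocyte lists summed to at most 3.88 and 1.81 CPM. The leukocyte list summed to 4.02 to 8.02 CPM in CD34lo and 14.6 to 17.4 CPM in CD34hi fibroblasts, of which *Cd3e* gave 13.9 to 16 CPM in CD34hi. *Cd79a* was higher in CD34lo fibroblasts (1.49 to 2.09 against 0.617 to 1.02 CPM, log2 fold change -1.05, edgeR adjusted p = 0.0309), and *Ptprc* (CD45) did not exceed 0.36 CPM in any library. The part of these cells in the SLRP differences was not tested.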

How the data were processed

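Bulk RNA-seq libraries were made by the authors from FACS-sorted fibroblasts (TruSeq RNA v2, a kit that does not mark strand) and sequenced on a NextSeq instrument. Reads were aligned by the authors to GRCm38/mm10 and assigned to genes with Rsubread. The deposited values are raw counts per gene without normalization or filter. The annotation for counting and the treatment of multi-mapping reads are not given in the sources used here.

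Symbols came from RefSeq (GRCm38.p6) by gene identifier, for 25275 of 27179 genes. In edgeR 4.0.16 (R 4.3.3), the counts went through filterByExpr by population (15219 genes kept), TMM and the quasi-likelihood test without a block, with Benjamini-Hochberg adjustment at 0.05. SE is the size of the log2 fold change over the root of F, CPM use TMM-scaled totals, log2 differences within pools a prior count of 2, and TPM the deposited gene lengths. Motifs were searched in the 250 bases before each RefSeq start. Scripts were tested on simulated data.

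The members and lists were chosen with earlier results of these data known. The text names every member. Of each further list it names up to 4 called genes with the largest change and 1 direction over 3 pools. It also names up to 2 most abundant genes per list that did not pass. *Bmp1*, *Pcolce*, *Tgfb1*, *Tgfb3*, *Col1a1*, *Col1a2*, *Ecm2*, the neighbours and the markers were added after their values were seen. Same-numbered libraries come from the same mice and so are paired. The deviations of pool mates from their group means correlated across genes with r = 0.279, 0.0844 and 0.243. The 22 alternatives included limma 3.58.1 (voom), DESeq2 1.42.0, other normalizations and filters, the replicate block, thinned counts, pools and libraries left out, and stricter thresholds. Results for some genes are left out. Nothing else from the study was analysed here.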

Additional observations from a re-analysis of the deposited data

How the results depend on the processing

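The 5 members higher in CD34lo fibroblasts were called in each of the 22 alternatives, and *Dcn* in none (adjusted p from 0.0818 with DESeq2 to 0.521). Of 220 comparisons of a member with an alternative, 212 kept direction and side of the threshold, 8 fell short of it and 0 reversed; all 8 concern *Omd* and *Prelp*. Members higher in CD34hi numbered 2 at an adjusted p under 0.01, where *Omd* (1.05) and *Prelp* (0.69) were lost, and *Prelp* was also lost at a minimum log2 fold change of 1. Leaving out a pool or library gave 2 to 4 such members, with 2 without pool 3. It moved the log2 fold change of *Omd* between 0.74 and 1.37 and of *Prelp* between 0.54 and 0.90, and the call of *Omd* or *Prelp* was lost as stated above. Over all genes, 5411 were called, 3444 at an adjusted p under 0.01, 2986 with the minimum fold change, and 3468 to 5236 with a pool or library left out, the lowest without pool 1.

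The replicate block by mouse pool gave 6161 calls with edgeR and 6418 with limma-voom, and changed no member's call, with *Omd* at 1.16 (adjusted p = 0.0044) and *Prelp* at 0.72 (adjusted p = 0.0041) in edgeR. Upper-quartile factors turned 2570 against 2841 calls into 2284 against 3128, with 4 and 5 members still called. In TPM in place of counts, the 10 genes took 1.81% in CD34lo and 1.29% in CD34hi libraries, and in counts in place of TPM *Dcn* made up 63.4% of the members in CD34hi libraries. Leaving out a library moved the mean share of counts between 1.44% and 1.62% in CD34lo and between 1.07% and 1.16% in CD34hi.

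Among the other named genes, 16 of 1007 comparisons changed sign, all for genes that did not pass. Upper-quartile factors gave -0.03 for *B4galt1* and -0.03 for *Vcan*. With a pool or library left out, log2 fold changes ranged from -0.11 to 0.04 for *Dse*, from -0.03 to 0.09 for *B4galt1*, from -0.20 to 0.19 for *Mmp14*, from -0.09 to 0.02 for *Col5a1* and from -0.28 to 0.31 for *Vcan*. Of the genes that did not pass, *Fam20b* was called without CD34lo replicate 3 (adjusted p = 0.0377), and *Papss1* (0.0472), *Egfr* (0.0433) and *Col3a1* (0.0446) without CD34hi replicate 3. *Col3a1* was also called with DESeq2 (0.0204), and *Dsel* with limma-voom (0.0466), with DESeq2 (0.0318) and without a filter (0.0425). The causes of these shifts were not tested.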

Other observations

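Proteoglycans of the matrix outside the SLRP family were also read from the same fit. Of 14 listed genes, 9 were tested, of which 3 were higher in CD34hi, 2 were higher in CD34lo and 4 did not pass (edgeR, Benjamini-Hochberg adjustment). *Spock3*, which encodes a testican, lay at 0.203, 0.791 and 0.643 CPM in CD34lo and at 23.1, 18 and 15.1 CPM in CD34hi fibroblasts (log2 fold change 5.21 ± 0.40, SE, n = 3 per population, edgeR adjusted p = 2.77e-05). Without pool 1 the log2 fold change of *Spock3* was 4.55. Its relative *Spock2* moved the other way, with 33.8, 79.8 and 64.2 CPM in CD34lo and 8.18, 10.7 and 18.3 CPM in CD34hi fibroblasts (log2 fold change -2.25 ± 0.37, SE, edgeR adjusted p = 0.00159). *Prg4*, the gene of lubricin, was at 8.21, 17.1 and 15.2 CPM in CD34lo and at 53.6, 55.5 and 46.8 CPM in CD34hi fibroblasts (log2 fold change 1.95). *Srgn*, the intracellular proteoglycan serglycin, had a log2 fold change of 1.54. *Vcan*, the large aggregating proteoglycan versican, ranged from 294 to 646 CPM in CD34lo and from 454 to 582 CPM in CD34hi fibroblasts, with a log2 fold change of 0.02, and did not pass. *Agrn*, with a log2 fold change of -0.48, did not pass but was called with a replicate block for mouse pool (edgeR adjusted p = 0.0266) and without pool 3 (0.0164).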
